A study of Jaltomata procumbens and Jaltomata herrerae with 23 samples.

Results

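Phi-class glutathione S-transferases (GSTs) were followed by RNA-seq in 2 relatives of tomato, Jaltomata herrerae and Jaltomata procumbens, in leaf and in the floral nectary, the gland that secretes nectar. The loci were chosen by class, as 10 Arabidopsis phi loci (GSTF2, 4, 6, 7, 8, 9, 10, 11, 12 and 13), and GSTF7 had been singled out because it was much higher in herrerae nectary than in herrerae leaf. The table assigns Jaltomata transcripts to 13170 Arabidopsis loci, and 3 of the 10 had a row: GSTF7 (AT1G02920), GSTF11 (AT3G03190) and GSTF2 (AT4G02520). GSTF4, GSTF6, GSTF8, GSTF9, GSTF10, GSTF12 and GSTF13 were not analysed here. GSTF3 (AT2G02930), a phi locus outside the 10, is described beside them. All 3 members and GSTF3 passed the filter on low values (at least 1 TPM, a transcript level scaled for length and library total, in 2 or more libraries), as did 13075 of the 13170 loci.

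Per the labels, nectaries were dissected by hand at 3 stages: pre-secretory (24 to 48 h before anthesis), secretory (full anthesis, 3 to 6 h after dawn) and post-secretory (after petals had dropped). Fully expanded leaf was the fourth tissue. Plants of both species were grown in the same facility, and no treatment, strain, genotype or plant age is stated. Herrerae had 3 pre-secretory, 3 secretory and 3 post-secretory libraries and 2 of leaf, and procumbens had 4, 2, 3 and 3.

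GSTs join the tripeptide glutathione to reactive or foreign molecules, which makes these more soluble and marks them for export into the vacuole. Some instead act as peroxidases, or bind a small molecule and carry it without changing it. The phi and tau classes are the large plant classes: in Arabidopsis GSTF6 and GSTF7 are known for induction by pathogens and oxidative stress, GSTF2 binds plant metabolites as a carrier, GSTF11 belongs to glucosinolate synthesis, and GSTF12 is needed for anthocyanin to reach the vacuole. In Arabidopsis GSTF6 and GSTF7 are neighbouring near-identical genes and GSTF2 and GSTF3 are near-identical copies. Which of each pair a Jaltomata transcript was given to is therefore uncertain.

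Replicate A of procumbens pre-secretory nectary, post-secretory nectary and leaf correlated better with another group (r = 0.886, 0.976 and 0.936) than with their own (r = 0.463, 0.823 and 0.711), and the rule that chose the loci leaves them out. Pre-secretory A was nearest to herrerae leaf, post-secretory A to procumbens secretory nectary and leaf A to procumbens post-secretory nectary. Procumbens pre-secretory C, which was kept, correlated at r = 0.955 with the secretory libraries and at 0.935 with its own group. Summed TPM of 6 leaf mesophyll markers was 76997 to 110351 in herrerae leaf, 37003 to 55020 in procumbens leaf and 152 to 9696 in the nectary libraries used, and 4 nectary markers reached 42734 in procumbens secretory nectary. Tests used the other 20 libraries, with TPM rescaled so that the median locus matched between libraries, in limma over all 13075 loci. A locus was called at a Benjamini-Hochberg adjusted p under 0.05. Changes are differences of log2(rescaled TPM + 1) with their SE. How transcripts of each species were assigned to loci is not given. Species differences in level and in assignment therefore cannot be told apart, also for loci above 0 in both.

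Of the GST loci in the table, GSTF7 had the highest TPM in herrerae nectaries before and during secretion. It was listed at 0 in the procumbens libraries used. In herrerae its deposited TPM before secretion was 545 in library A, 2585 in B and 1575 in C, and during secretion 2898, 2372 and 1429. It stood at 98, 91 and 94 in post-secretory nectary and at 29 and 26 in leaf. All 6 pre-secretory and secretory libraries thus lay above every post-secretory and leaf library, and the 3 post-secretory libraries lay above both leaf libraries. Among the 13170 loci GSTF7 ranked 70th, 13th and 17th by TPM in the pre-secretory libraries and 13th, 16th and 17th in the secretory ones. In post-secretory nectary its rank was 758th to 954th, and in leaf 2672nd and 2881st.

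**Figure D1:**
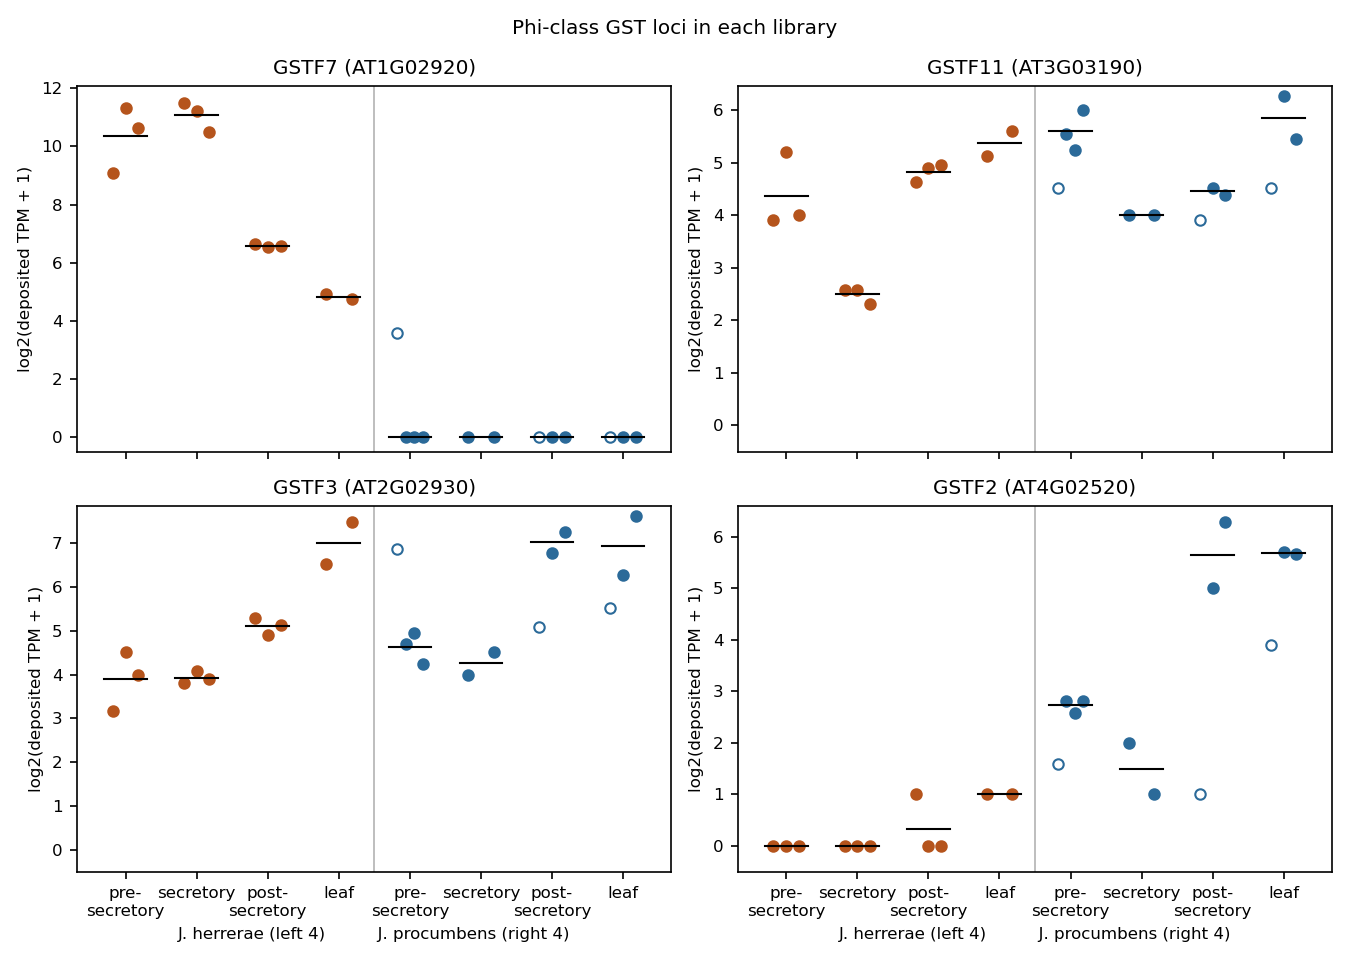
Deposited TPM of the 4 phi-class loci in every library, as log2(TPM + 1) on the vertical axis, with herrerae groups in the left of each panel (orange) and procumbens groups on the right (blue). Each point is a library, open points are the 3 procumbens libraries not used in the tests, and each bar is the mean of the log2 values of the filled points; GSTF7 lies between 545 and 2898 TPM in herrerae pre-secretory and secretory nectary and at 0 in every filled procumbens point.

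Across the herrerae nectary stages GSTF7 was 4.43 higher than in leaf on the log2(rescaled TPM + 1) scale, 21.5-fold. This contrast chose the locus, so the value is a description and carries no test. GSTF11, GSTF3 and GSTF2 went the other way in the same contrast, with nectary minus leaf at -1.59, -2.79 and -1.10 on that scale, again with no test. Of all 13075 loci, the median difference was 0.

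Between the nectary stages GSTF7 rose from the pre-secretory to the secretory stage and fell steeply after it. The choice of GSTF7 did not compare these stages. It did rest on its level in these same nectary libraries, so the stage tests are not independent of it. Rescaled TPM was 935 (A), 2114 (B) and 2102 (C) before secretion and 4158, 3584 and 3196 during it, so the rescaled ranges did not overlap. The rise was 1.17 on the log2 scale (SE 0.23, 2.25-fold, adjusted p = 0.00131). GSTF7 was at 0 in every procumbens library used, so these add no spread to the variance shared by all groups. Its SE and p in both stage tests can therefore be too small. A fit of the compared groups alone, with no procumbens library, also called the rise. In deposited TPM the ranges overlapped, the rise was 0.71 and it was not called (adjusted p = 0.174), while the median of all loci shifted from -0.036 when rescaled to -0.39 as deposited. With all 23 libraries in the fit, which adds 3 procumbens libraries and none of herrerae, the rise was 1.17 rescaled (adjusted p = 0.335) and 0.71 as deposited (0.625), and neither was called. The size of the rise thus did not change. GSTF7 was at 11 TPM in the pre-secretory library added and at 0 in the other added ones. These libraries enter this herrerae contrast only through the shared variance, the rescaling and the adjustment over loci.

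After secretion GSTF7 fell by 5.40 on the log2 scale (SE 0.23, 42.1-fold, adjusted p = 2.36e-09). Rescaled TPM was 95.5, 82.0 and 78.7 in post-secretory A, B and C, far below the lowest secretory library. The fall was called in all alternatives run, with a highest adjusted p of 0.000268. Both stage contrasts use the same 3 secretory libraries. The summed TPM of the 4 nectary markers was 3056 to 7957 before secretion, 9906 to 14727 during it and 613 to 1490 after it. Of the 4, 1 was called higher at secretion, where 15.4% of all loci were. After it 3 were called lower, where 25.5% of all loci were. The 6 leaf mesophyll markers were at 345 to 4884, 152 to 322 and 4137 to 9696, with GAPA alone at 0 during secretion. The 4 carpel and ovule markers were at 230 to 723, 302 to 488 (ANT at 0) and 199 to 244. The 2 petal and stamen markers were at 57 to 110, 31 to 66 and 28 to 45. The part of these sets in the GSTF7 result was not tested. In tissue dissected by hand, fewer cells of a type and less RNA per cell cannot be told apart.

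As a share of the TPM of all 28 GST loci in the table (4 phi, 15 tau and 9 of other classes), which does not depend on the rescaling, GSTF7 made up 41.5, 56.9 and 60.2% before secretion. It made up 76.4, 72.5 and 71.9% during secretion, so the 2 stages did not overlap on this measure. It was 7.89 to 9.32% in post-secretory nectary and 1.38 and 2.08% in leaf. Only 15 of 28 listed tau loci and 9 of 12 listed loci of other classes had a row. These are therefore shares of the loci in the table and not of all GST transcript. The 15 tau loci together held 226 to 507 TPM before, 166 to 240 during and 267 to 325 after secretion, against 569 and 795 in leaf. The next most abundant of the 28 GST loci in herrerae nectary was DHAR2, a dehydroascorbate reductase, at 280 ± 69.4 TPM (SD, n = 3) during secretion.

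**Figure D2:**
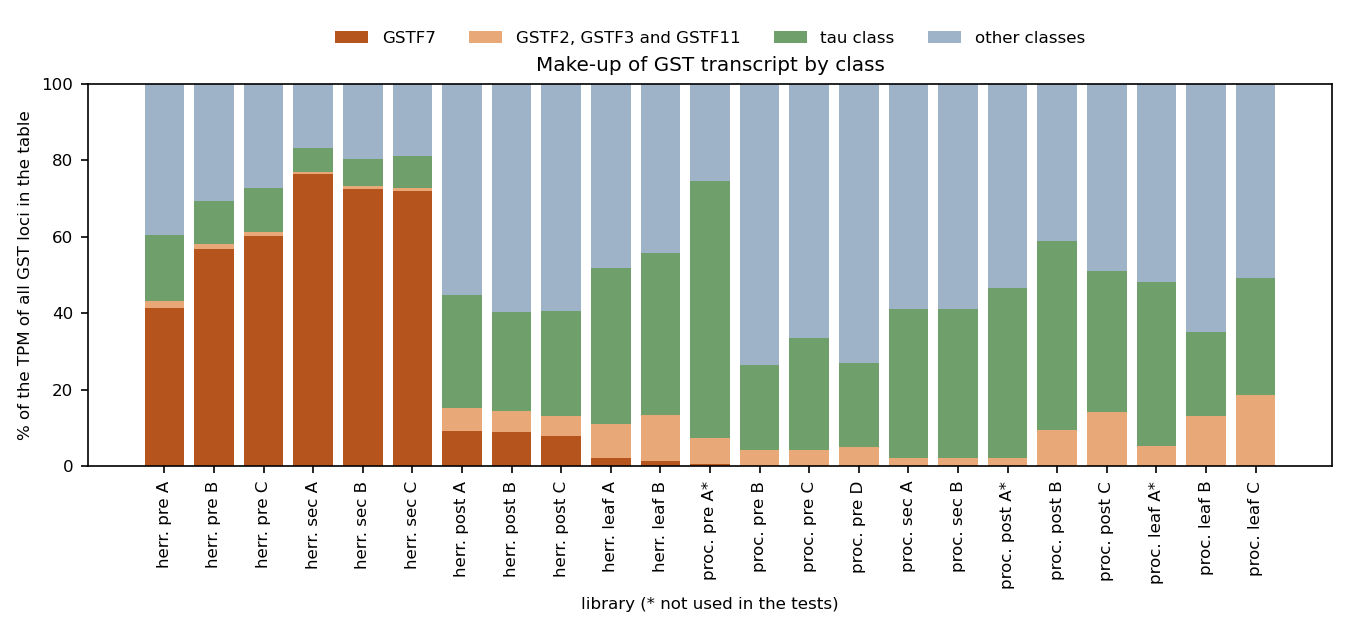
Share of the TPM of all 28 GST loci held by GSTF7, by the other 3 phi loci, by the tau class and by the other classes, 1 bar for each library; an asterisk marks the libraries not used in the tests. GSTF7 fills 71.9 to 76.4% of the herrerae secretory bars and is absent from the kept procumbens bars, where the other classes hold the largest share except in post-secretory B.

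In procumbens GSTF7 was listed at 0 in 11 of 12 libraries and at 11 TPM in pre-secretory A, one of the libraries left out. A value listed at 0 in a table without counts can be a failed estimate or a transcript assigned elsewhere, and GSTF7 was chosen for its level in herrerae nectary, so no fold or test between the species is given for it. It was not alone in this pattern: 228 loci (1.73% of the table) were above 0 in all 11 herrerae libraries and at 0 in the other 11 procumbens libraries, and 244 loci (1.85%) showed the reverse. Of those 228, GSTF7 had the highest median over the 11 herrerae libraries, 545 TPM against a median of 8 for the set. That is a description of a locus chosen for its nectary level, over libraries of 4 tissues that ran from 26 to 2898 TPM. In the library labelled procumbens pre-secretory A, 222 of the 228 (97.4%) were above 0, and 19 of the 244 (7.79%).

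The 5 loci with the highest Pearson r with GSTF7, on log2(rescaled TPM + 1) over the 20 libraries, reached 0.979 to 0.990. This is a description over libraries that share the same 2 species and tissues. With GSTF7 at 0 in every procumbens library used, r carries the split between species as well as any stage pattern. AT2G46490 was the nearest (r = 0.990), with median herrerae TPM of 19, 12 and 6 before, during and after secretion and 3 in leaf. AT1G63220 followed (r = 0.989), with 272, 288, 42 and 35.5. Both were at 0 in the procumbens libraries used, as were 2 of the other 3, and the remaining one did not pass 2 TPM there.

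GSTF11, which in Arabidopsis takes part in making glucosinolates, was low in secretory nectary and high in leaf in both species. In herrerae its deposited TPM was 14, 36 and 15 in pre-secretory A, B and C, 5, 5 and 4 in secretory, 24, 29 and 30 in post-secretory nectary and 34 and 48 in leaf. In procumbens it was 46, 37 and 63 in pre-secretory B, C and D, 15 and 15 in secretory A and B, 22 and 20 in post-secretory B and C, and 76 and 43 in leaf B and C. The libraries left out stood at 22 (leaf A), 14 (post-secretory A) and 22 (pre-secretory A). The herrerae secretory libraries lay below every other library.

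From the pre-secretory to the secretory stage GSTF11 fell by 1.51 in herrerae (log2, SE 0.19, 2.84-fold, adjusted p = 5.2e-05) and by 1.35 in procumbens (SE 0.21, 2.55-fold, adjusted p = 0.000903). In both species the groups did not overlap. The difference between the species in this change was -0.16 (SE 0.29, 95% interval -0.77 to 0.45) and was not called (adjusted p = 0.748). The herrerae fall was called in all alternatives run (highest adjusted p = 0.0308). The procumbens fall was lost with all 23 libraries (adjusted p = 0.0776 rescaled and 0.186 as deposited) and in a fit of the compared groups alone (0.0545).

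After secretion GSTF11 rose by 1.54 in herrerae (log2, SE 0.19, 2.92-fold, adjusted p = 9.16e-06), and this was called in all alternatives run. In procumbens the change was 0.073 (SE 0.23, 95% interval -0.43 to 0.57, adjusted p = 0.859). The change differed between the species by 1.47 (SE 0.30, adjusted p = 0.00353), a difference lost with all 23 libraries (0.198 rescaled and 0.156 as deposited). Over the herrerae stages the summed TPM of 2 epidermis markers was 17 to 31, 3 to 6 and 135 to 213, and of 2 vascular markers 9 to 16, 6, and 24 to 26, with no marker of either set at 0. Their part in the GSTF11 result was not tested.

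Across its 8 groups GSTF11 ran, by mean rescaled TPM, from procumbens leaf (64.3 ± 17.1, SD, n = 2) and herrerae leaf (54.3 ± 17.3, n = 2), which overlapped, to procumbens pre-secretory nectary (33.0 ± 5.74, n = 3). Herrerae post-secretory (24.9 ± 1.39, n = 3) and pre-secretory nectary (24.5 ± 4.73, n = 3) came next and overlapped. Procumbens post-secretory (12.9 ± 0.699, n = 2) and secretory nectary (12.2 ± 0.0406, n = 2) followed, whose difference was not called. Herrerae secretory nectary was lowest (7.89 ± 0.933, n = 3). Procumbens nectary lay below procumbens leaf (log2 difference -1.80, SE 0.19, 3.49-fold, adjusted p = 1.29e-06), a call lost only with all 23 libraries as deposited among the alternatives run (0.121).

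Between species GSTF11 was lower in herrerae than in procumbens secretory nectary (log2 difference -0.58, SE 0.21, adjusted p = 0.0357). This call was lost with all 23 libraries rescaled (0.367), without herrerae secretory A (0.0903) or B (0.0772), and without procumbens secretory A (0.125) or B (0.121). In post-secretory nectary it was higher in herrerae by 0.89 (SE 0.21, adjusted p = 0.00309), which was lost in deposited TPM (0.38, adjusted p = 0.397) and with all 23 libraries (0.0824 rescaled and 0.363 as deposited). In pre-secretory nectary the difference was -0.42 (SE 0.19, adjusted p = 0.0834). There it was called in deposited TPM (-1.23, adjusted p = 0.00302) and without herrerae pre-secretory B (0.0429). In leaf it was -0.25 (SE 0.23, 95% interval -0.75 to 0.25, adjusted p = 0.425), and its sign turned with all 23 libraries (0.44), without herrerae leaf A (0.075) and without procumbens leaf B (0.029).

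GSTF3, a near copy of GSTF2 in Arabidopsis, was highest in leaf in herrerae and in leaf and post-secretory nectary in procumbens. In herrerae its deposited TPM was 8, 22 and 15 in pre-secretory A, B and C, 13, 16 and 14 in secretory, 38, 29 and 34 in post-secretory nectary and 91 and 178 in leaf. In procumbens it was 25, 30 and 18 in pre-secretory B, C and D, 15 and 22 in secretory A and B, 109 and 152 in post-secretory B and C, and 76 and 197 in leaf B and C. The libraries left out stood at 45 (leaf A), 33 (post-secretory A) and 116 (pre-secretory A). The procumbens post-secretory and leaf libraries overlapped, and both lay above the pre-secretory and secretory libraries used.

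In procumbens GSTF3 rose after secretion by 2.34 (log2, SE 0.47, 5.07-fold, adjusted p = 0.00131), and the groups did not overlap. With all 23 libraries this was not called (adjusted p = 0.379 rescaled and 0.504 as deposited). In herrerae the change after secretion was 0.31 (SE 0.38, adjusted p = 0.517) on the rescaled values and 1.17 in deposited TPM, where it was called (0.0109). There the median of all loci shifted from 0.13 to 0.86. The change differed between the species by -2.03 (SE 0.61, adjusted p = 0.0275). That call was lost in deposited TPM (0.079), with all 23 libraries (0.545 rescaled and 0.670 as deposited), and without herrerae secretory C (0.0578), herrerae post-secretory B (0.0594) or C (0.0525), procumbens secretory A (0.116) or procumbens post-secretory C (0.0895).

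From pre-secretory to secretory nectary GSTF3 changed by 0.48 in herrerae (log2, SE 0.38, adjusted p = 0.364) and by -0.14 in procumbens (SE 0.43, adjusted p = 0.857), and neither was called. The procumbens sign turned without pre-secretory C (0.089) and without secretory A (0.12). The difference between the species was 0.62 (SE 0.58, adjusted p = 0.494). Procumbens nectary lay below leaf (-2.28, SE 0.38, 4.85-fold, adjusted p = 0.000128), although the groups overlapped through the post-secretory libraries, and the call was lost with all 23 libraries (0.107 rescaled and 0.145 as deposited).

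Between species GSTF3 was lower in herrerae post-secretory nectary (log2 difference -1.36, SE 0.43, 2.57-fold, adjusted p = 0.0166). The call was lost with all 23 libraries (0.384 rescaled and 0.156 as deposited), without herrerae post-secretory B (0.0509) and without procumbens post-secretory C (0.120). The other tissues gave no call: 0.050 before secretion (adjusted p = 0.936), 0.67 during it (0.213) and 0.30 in leaf (SE 0.47, adjusted p = 0.647). The value before secretion turned negative in deposited TPM (-0.74), without herrerae pre-secretory C (-0.058) and without procumbens pre-secretory D (-0.20), and that during secretion turned in deposited TPM (-0.33). The leaf value turned without herrerae leaf B (-0.26) and without procumbens leaf B (-0.51).

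By mean rescaled TPM, GSTF3 ran from herrerae leaf (180 ± 94.7, SD, n = 2) and procumbens leaf (158 ± 115.0, n = 2) to procumbens post-secretory nectary (80.5 ± 19.8, n = 2), where each overlapped the next. Herrerae post-secretory (30.5 ± 5.74, n = 3), secretory (24.7 ± 6.35, n = 3) and pre-secretory nectary (17.2 ± 3.21, n = 3) followed, again with each overlapping the next. Procumbens pre-secretory (17.1 ± 5.81, n = 3) and secretory nectary (15.1 ± 3.98, n = 2) were lowest and overlapped as well.

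GSTF2, which in Arabidopsis binds small plant metabolites, was near 0 in herrerae and was found in procumbens leaf and post-secretory nectary. In herrerae it was at 0 TPM in all 6 pre-secretory and secretory libraries, at 1, 0 and 0 in post-secretory A, B and C, and at 1 in both leaf libraries. In procumbens its deposited TPM was 6, 5 and 6 in pre-secretory B, C and D, 3 and 1 in secretory A and B, 31 and 77 in post-secretory B and C, and 51 and 50 in leaf B and C. The libraries left out stood at 14 (leaf A), 1 (post-secretory A) and 2 (pre-secretory A). Of the libraries used, those of procumbens post-secretory nectary and leaf overlapped, and each lay above every pre-secretory and secretory library of that species.

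In procumbens GSTF2 rose after secretion by 3.64 (log2, SE 0.39, 12.5-fold, adjusted p = 1.53e-05). With all 23 libraries the rise was not called (adjusted p = 0.372 rescaled and 0.504 as deposited), and post-secretory A, at 1 TPM, is one of the libraries this adds. Beside the rises of GSTF2 and GSTF3, the summed TPM of the 6 leaf mesophyll markers was between 190 and 217 during secretion and between 1359 and 2019 after it. The 4 nectary markers were between 33879 and 42734 and then between 1060 and 4470. The 2 vascular markers were between 1 and 5 and then between 14 and 23, with APL at 0 at both stages, and the part of these markers was not tested. GSTF2 fell from the pre-secretory to the secretory stage (log2 change -0.97, SE 0.36, adjusted p = 0.0465), between values of 1 to 6 TPM. It was lost with all 23 libraries (0.545 rescaled and 0.597 as deposited), a pseudocount of 0.1 (0.190), the compared groups alone (0.081), and without pre-secretory B (0.104), C (0.0644) or D (0.0944) or secretory B (0.430). Procumbens nectary lay below leaf (-2.97, SE 0.32, 7.83-fold, adjusted p = 1.47e-06), which was lost with all 23 libraries as deposited (0.0559).

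GSTF2 was listed higher in procumbens than in herrerae in all 4 tissues. On the log2(rescaled TPM + 1) scale, herrerae minus procumbens was -4.62 in leaf (SE 0.39, adjusted p = 1.33e-07) and -4.64 in post-secretory nectary (SE 0.36, adjusted p = 3.76e-08). Both were called in all alternatives run, with a highest adjusted p of 0.00834 in leaf and 0.00598 in post-secretory nectary. In these 2 tissues every herrerae library was at 0 or 1 TPM. Both differences thus rest on whole-number values at the floor, which can also be failed estimates. Herrerae was listed at 0 in the other 2 stages, so no fold is given there and both calls rest on a group listed at 0, which as for GSTF7 can be a failed estimate. The adjusted p was 2.52e-05 before secretion, where all 23 libraries rescaled ended the call (0.0566). It was 0.00624 during secretion, where all 23 libraries (0.321 rescaled and 0.231 as deposited) and leaving out procumbens secretory A (0.132) ended it. No species difference in a stage change is given for GSTF2, at 0 or 1 TPM in every herrerae nectary library, or for GSTF7, at 0 in the procumbens libraries used.

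By mean rescaled TPM, GSTF2 ran from procumbens leaf (56.0 ± 6.66, SD, n = 2) and post-secretory nectary (33.4 ± 20.5, n = 2) to pre-secretory (3.89 ± 0.190, n = 3) and secretory nectary (1.63 ± 1.16, n = 2). Herrerae leaf (1.31 ± 0.104, n = 2) overlapped procumbens secretory nectary, and herrerae post-secretory nectary (0.325 ± 0.563, n = 3) was below it. On this scale the 4 procumbens groups did not overlap.

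**Figure D3:**
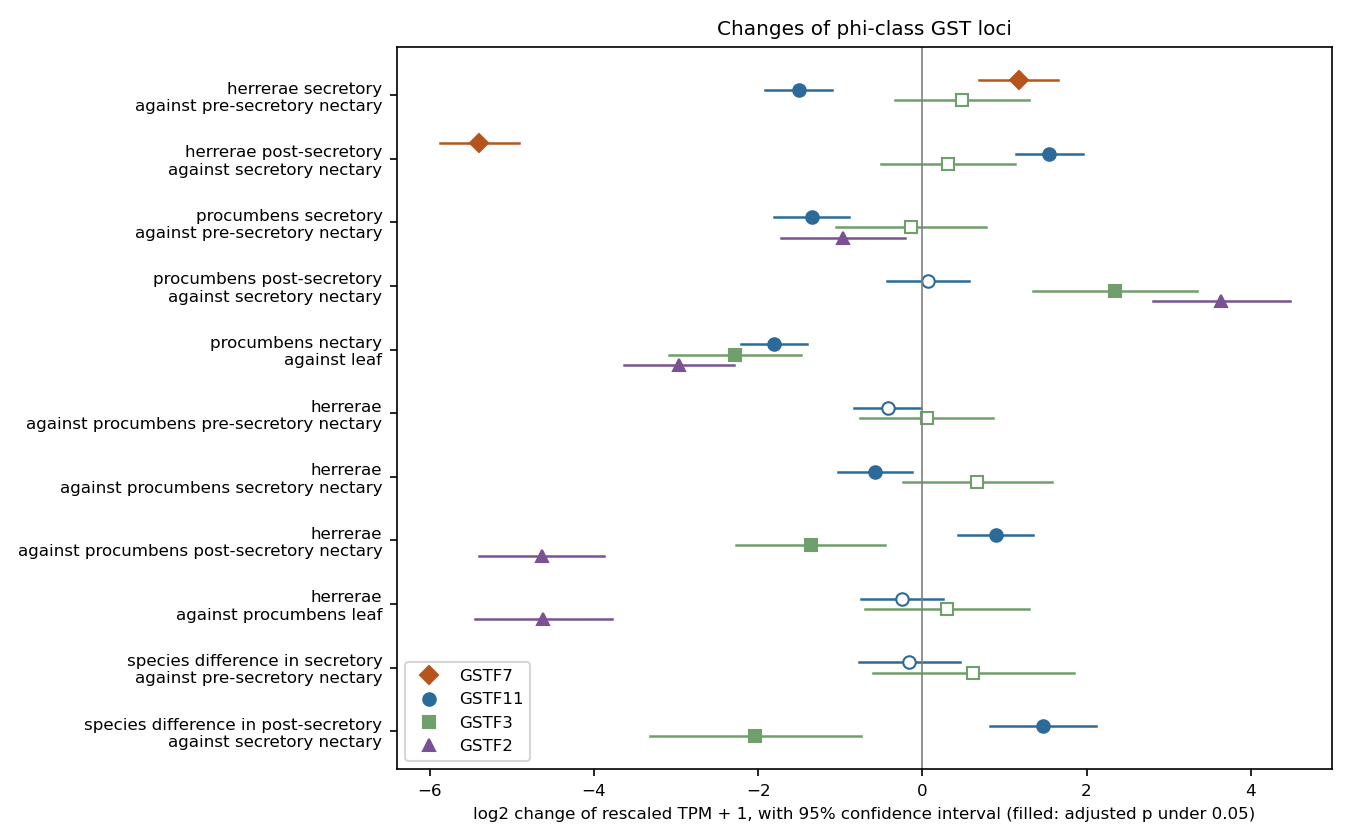
Changes of the 4 phi-class loci in the 11 tested comparisons, as log2 differences of rescaled TPM + 1 on the horizontal axis with 95% confidence intervals; filled symbols had an adjusted p under 0.05 and comparisons against a group at 0 are left out. GSTF7 rises by 1.17 and then falls by 5.40 in herrerae, and GSTF2 and GSTF3 rise by 3.64 and 2.34 in procumbens after secretion.

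Counts of the members stand against the share of all loci that passed the same test. In herrerae secretory against pre-secretory nectary, of the 2 members above 0 there, 1 was called higher and 1 lower, where 15.4% of all loci were called higher and 18.1% lower. In herrerae post-secretory against secretory nectary it was again 1 and 1, in the opposite direction for each, against 32.9% and 25.5%. In both, 1 of the 2 members is GSTF7, which was chosen for its level in herrerae nectary. In procumbens, secretory against pre-secretory nectary gave 0 higher and 2 lower of 2, against 17.3% and 18.3%, and post-secretory against secretory gave 1 higher and 0 lower, against 21.4% and 16.9%. Both members were lower in procumbens nectary than leaf, where 24.4% of all loci were higher and 28.4% lower.

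Between species the same 2 members, GSTF11 and GSTF2, could be tested. Before secretion 1 was called lower in herrerae, where 24.7% of all loci were called higher and 23.8% lower. During secretion both were lower, against 24.2% higher and 24.3% lower. Without GSTF2, whose herrerae libraries were at 0 at these stages, these are 0 of 1 and 1 of 1. In post-secretory nectary 1 was higher and 1 lower, against 23.7% and 22.9%, and in leaf 1 was lower, against 20.7% and 18.3%. Of the changes tested for a difference between species, GSTF11 gave no call for secretory against pre-secretory (6.55% of all loci higher and 6.75% lower). It gave 1 higher call for post-secretory against secretory (9.98% higher and 10.9% lower).

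The 4 phi loci in the table held 43.2 to 61.3% of the TPM of the 28 GST loci in herrerae pre-secretory nectary. They held 72.8 to 76.9% in secretory nectary, and at both stages nearly all of it was GSTF7. In post-secretory nectary they held 13.3 to 15.3% and in leaf 11.1 and 13.5%. In procumbens, where GSTF7 was listed at 0, they held 4.13 to 5.01% before and 2.03 and 2.09% during secretion. After it they held 9.45 and 14.2%, and in leaf 13.2 and 18.7%. The procumbens phi share was thus lowest at the stage where the herrerae share was highest, and no test was made of these shares. The herrerae peak was that of GSTF7. In herrerae the GSTF11 share was lowest during secretion too, at 0.132 to 0.201%, against 0.573 to 1.07% before and 2.28 to 2.82% after it. The GSTF3 share there was 0.343 to 0.705% during secretion, 0.484 to 0.609% before and 2.82 to 3.61% after it. Total TPM of the 28 GST loci ranged from 1030 to 4541 in herrerae and from 1541 to 1818 in the procumbens libraries used.

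Of the 15 tau loci, the other large plant class, limma called 0 in herrerae secretory against pre-secretory nectary, and 2 had an unadjusted p under 0.05. Of all 13075 loci, limma called 15.4% higher and 18.1% lower there, and 5687 had an unadjusted p under 0.05. The median log2 change of the tau loci was -0.28 against -0.036 for all loci. After secretion 4 rose and 2 fell, with GSTU22 (AT1G78340) up by 2.74 (SE 0.30, adjusted p = 3.05e-06) and GSTU21 (AT1G78360) down (-1.56, SE 0.31, adjusted p = 0.0006). In procumbens 5 rose and 3 fell at secretion, led by GSTU7 (AT2G29420, 2.82, SE 0.65, adjusted p = 0.00467) and GSTU24 (AT1G17170, -1.28, adjusted p = 0.00337). After it 4 rose and 2 fell, among them GSTU1 (AT2G29490, 3.59, adjusted p = 0.0012) and GSTU17 (AT1G10370), which in Arabidopsis takes part in stress signalling (-2.96, adjusted p = 0.000847). In procumbens nectary against leaf 2 were higher and 5 lower, with GSTU22 lower (-2.02, adjusted p = 3.73e-05). Of all loci, 32.9% rose and 25.5% fell after secretion in herrerae. In procumbens 17.3% rose and 18.3% fell at secretion, 21.4% and 16.9% after it, and 24.4% were higher and 28.4% lower in nectary than leaf. Adding the 3 libraries left out, rescaled, made the tau counts 1 rise and 1 fall after secretion in herrerae, 1 and 0 at secretion and 0 and 0 after it in procumbens, and 1 and 1 against leaf. Of all 13080 loci, 2279 rose and 1941 fell after secretion in herrerae there. In procumbens 376 were called at secretion, 0 after it and 1777 against leaf. In deposited TPM of 20 libraries the tau counts were 6 and 0 after secretion in herrerae and 0 and 1 at secretion. Of all 13075 loci, 7041 rose and 710 fell after secretion in herrerae in that setting, and 503 rose and 2806 fell at secretion.

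Between species, 3 of the 15 tau loci were higher and 3 lower in herrerae before secretion, 2 and 5 during it, 4 and 7 after it, and 6 and 2 in leaf. Of all loci, 18.3 to 24.7% were called in each direction in these comparisons. The tau counts with all 23 libraries rescaled were 0 and 2, 0 and 4, 1 and 3, and 1 and 2. In that fit 2531, 3448, 4060 and 2260 of 13080 loci were called before, during and after secretion and in leaf. GSTU25 (AT1G17180) was higher in herrerae leaf by 4.31 (SE 0.53, adjusted p = 9.21e-06), at 138 against 7.5 TPM. GSTU17 was lower in herrerae secretory nectary (log2 difference -3.58, adjusted p = 3.05e-05), at 4.67 against 110.5 TPM. The change at secretion differed between species for 2 tau loci upward and 4 downward, and the change after it for 1 and 3, where 6.55 and 6.75% and then 9.98 and 10.9% of all loci were called. Among these were GSTU24 at secretion and GSTU23 after it, each listed at 0 in a group compared. Neither difference called any tau locus (0 of 15) with all 23 libraries rescaled, where 64 and 243 of 13080 loci were called. GSTU7 was one of those 4, with a species difference of -3.70 (SE 0.87, adjusted p = 0.0142).

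**Figure D4:**
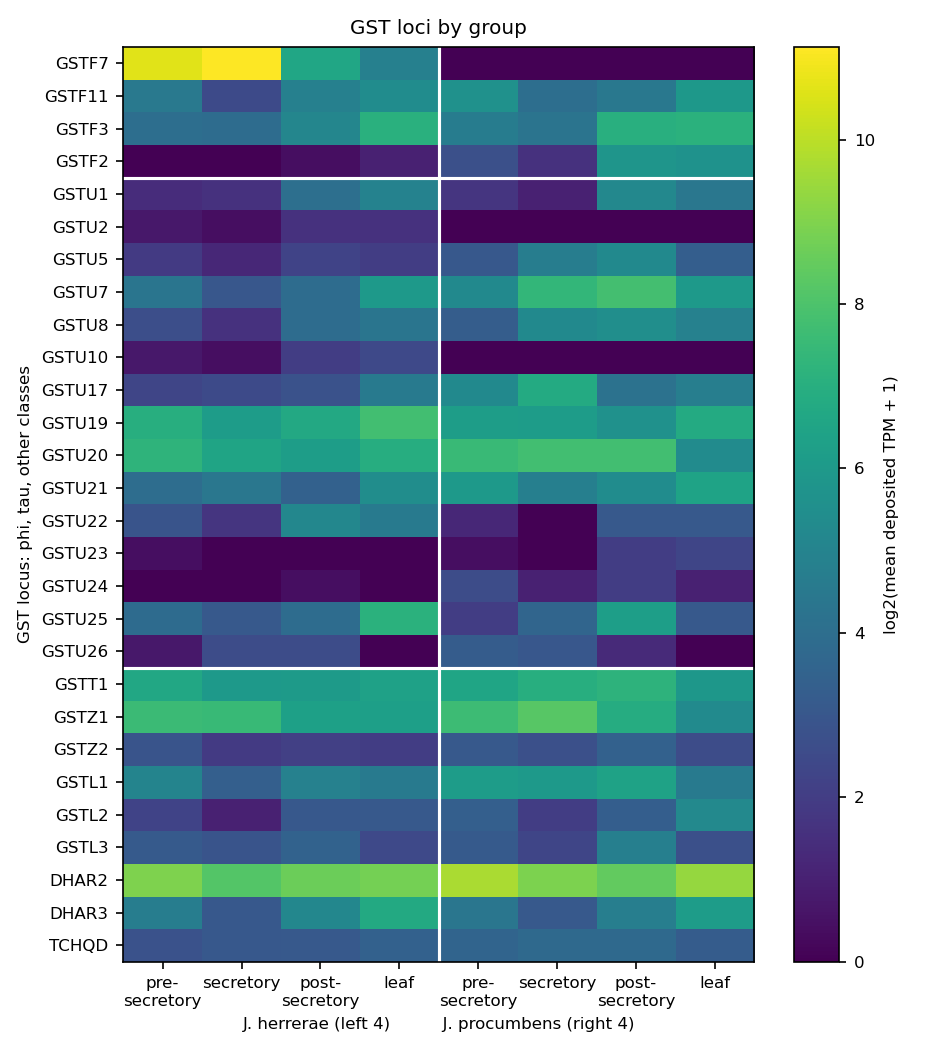
Mean deposited TPM of the 28 GST loci in the 8 groups, as log2(mean TPM + 1) by colour, with phi loci on top, tau loci in the middle and other classes below, over the 20 libraries used. GSTF7 is the brightest row in herrerae pre-secretory and secretory nectary and dark in procumbens, where DHAR2 is the brightest row in pre-secretory nectary.

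Of the 9 loci of other GST classes, 1 rose and 4 fell in herrerae at secretion, where 15.4% of all loci rose and 18.1% fell. After it 2 rose and 3 fell, against 32.9% and 25.5% of all loci. GSTZ1 (AT2G02390), an isomerase of tyrosine breakdown, fell after secretion in herrerae (-1.99, SE 0.26, adjusted p = 1.65e-05) and in procumbens (-1.80, SE 0.32, adjusted p = 0.000626). In procumbens it had risen at secretion by 0.93 (SE 0.30, adjusted p = 0.0245), and it was higher in procumbens nectary than leaf by 1.57 (SE 0.26, adjusted p = 0.000128). The lambda-class locus GSTL1 (AT5G02780), of a class that reduces glutathione conjugates, fell at secretion in herrerae (-1.19, SE 0.27, adjusted p = 0.00341). In procumbens 2 rose and 2 fell at each step. Of all loci, 17.3% rose and 18.3% fell in procumbens at secretion, and 21.4% and 16.9% after it. GSTL3 (AT5G02790) rose after secretion there by 2.02 (SE 0.40, adjusted p = 0.00122), and GSTL2 (AT3G55040) was lower in nectary than leaf (-2.87, SE 0.32, adjusted p = 2.67e-06). Nectary against leaf gave 2 higher and 3 lower in all, where 24.4% of all loci were higher and 28.4% lower. These counts with all 23 libraries rescaled were 0 rises and 1 fall at secretion and 1 and 2 after it in herrerae, 0 and 0 at each step in procumbens, and 1 and 2 against leaf. Of all 13080 loci, 670 rose and 491 fell at secretion in herrerae in that fit, and 2279 and 1941 after it. In procumbens it called 376 at secretion, 0 after it and 1777 against leaf.

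Of 7 genes that supply glutathione or clear its conjugates, 0 rose and 1 fell at secretion in each species, where 18.1 and 18.3% of all loci fell. In herrerae this was GGT1 (AT4G39640), a gamma-glutamyl transpeptidase that starts the breakdown of glutathione outside the cell (-1.46, SE 0.39, adjusted p = 0.00928), which rose after secretion (1.91, adjusted p = 0.000642). In procumbens it was GSH2 (AT5G27380), glutathione synthetase (-0.46, adjusted p = 0.0496). After secretion 2 rose and 2 fell in herrerae, with glutathione reductase GR1 (AT3G24170) among those that fell (-0.69, adjusted p = 0.00391). In procumbens 1 rose and 1 fell. Of all loci, 15.4% rose at secretion in herrerae and 17.3% in procumbens. After it 32.9% of all loci rose and 25.5% fell in herrerae, and 21.4% and 16.9% in procumbens. In the fit of all 23 libraries, rescaled, 0 of the 7 were called at secretion in either species, and after it 1 rose and 2 fell in herrerae and 0 were called in procumbens. Of all 13080 loci, that fit called 1161 in herrerae and 376 in procumbens at secretion. After it 2279 rose and 1941 fell in herrerae, and 0 were called in procumbens. ABCC2 (AT2G34660), which in Arabidopsis pumps conjugates into the vacuole, was lower in herrerae than in procumbens in every tissue. Its log2 differences were -1.03, -1.14, -0.96 and -1.10 before, during and after secretion and in leaf, and the adjusted p was at most 0.000567. Whether transcripts of both species were assigned to ABCC2 alike is not known.

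Of 6 genes that remove peroxides, 2 rose and 1 fell in herrerae at secretion, where 15.4% of all loci rose and 18.1% fell. After it 1 rose and 5 fell, against 32.9% and 25.5% of all loci. Rises and falls numbered 0 and 0 at secretion and 0 and 3 after it with all 23 libraries rescaled, and 0 and 2, then 1 and 3, in deposited TPM of 20 libraries. Of all loci, 670 rose and 491 fell, then 2279 and 1941, with all 23 libraries rescaled. In deposited TPM of 20 libraries 503 rose and 2806 fell, then 7041 and 710. GPX6 (AT4G11600), a thiol peroxidase, went the way of GSTF7: it rose by 1.18 (SE 0.29, adjusted p = 0.00657) and then fell (-2.37, SE 0.29, adjusted p = 9.45e-06). GPX8 (AT1G63460) went the other way, at -1.56 (adjusted p = 0.00405) and then 1.32 (adjusted p = 0.00537). In procumbens 3 rose and 2 fell at secretion, with catalase CAT2 (AT4G35090) up by 1.50 (adjusted p = 0.00933), and 1 rose and 2 fell after it. Of all loci, 17.3% rose and 18.3% fell in procumbens at secretion, and 21.4% and 16.9% after it. With all 23 libraries rescaled, 0 of the 6 were called at either step, where 376 and then 0 of 13080 loci were called. After secretion GPX6 also fell in procumbens (-1.24, adjusted p = 0.0133). Between species GPX1 (AT2G25080), a chloroplast peroxidase in Arabidopsis, was higher in herrerae during secretion by 4.10 (SE 0.31, adjusted p = 2.71e-08).

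The anthocyanin genes were read because GSTF12, not analysed here, serves that pathway in Arabidopsis. Of 8 tested, 1 rose and 0 fell in herrerae at secretion, namely F3H (AT3G51240), flavanone 3-hydroxylase (1.09, SE 0.32, adjusted p = 0.0174). After it 4 rose and 1 fell, led by TT12 (AT3G59030), a vacuolar transporter of flavonoids (2.30, SE 0.39, adjusted p = 0.000136). In procumbens 0 rose and 3 fell at secretion, among them the MYB regulator PAP1 (AT1G56650, -2.22, adjusted p = 0.00216), and 2 rose and 1 fell after it. Of all loci, 15.4% rose and 18.1% fell in herrerae at secretion, and 32.9% and 25.5% after it. In procumbens these shares were 17.3% and 18.3%, then 21.4% and 16.9%. In procumbens nectary against leaf 1 of the 8 was higher and 6 were lower, where 24.4% of all loci were higher and 28.4% lower. DFR (AT5G42800), dihydroflavonol reductase, was 1 of the 6 (-3.85, SE 0.40, adjusted p = 1.27e-06). Rescaled with all 23 libraries, the counts were 0 rises at secretion and 2 after it in herrerae and 0 calls at either step in procumbens. Against leaf they were 0 higher and 5 lower. In that fit 670 and then 2279 of 13080 loci rose in herrerae. In procumbens 376 and then 0 were called, and 1777 against leaf. In deposited TPM of 20 libraries, herrerae had 0 rises and 0 falls at secretion and 4 and 0 after it. Procumbens had 0 and 3, then 4 and 1. Of all 13075 loci, 503 rose and 2806 fell, then 7041 and 710, in herrerae in that setting. In procumbens 847 rose and 2274 fell at secretion, and 3973 were called after it.

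Some of these changes outside the phi class rested on the scale or on the libraries used. In deposited TPM, herrerae GSTU21 after secretion (adjusted p = 0.115), GPX6 (0.153) and F3H (0.232) at secretion were not called, and GR1 after secretion turned to 0.19 (0.646). In deposited TPM of procumbens GSTZ1 (0.249), GSH2 (0.101) and CAT2 (0.0695) at secretion and GPX6 after it (0.166) were not called. With all 23 libraries rescaled, herrerae GGT1 (0.0967), GPX6 (0.0988), GPX8 (0.124) and F3H (0.207) at secretion and GPX8 after it (0.0998) lost their calls. The procumbens stage changes named for GSTU7, GSTU24, GSTU1, GSTU17, GSTZ1, GSTL3, GSH2, CAT2, GPX6 and PAP1 were not called there either, with an adjusted p from 0.121 (GSH2) to 0.663 (CAT2). GSTU22 in procumbens nectary against leaf (0.254), GSTU25 between leaves (0.0686) and the species difference of GSTU7 (0.426) were lost as well. The changes of GSTL1 at secretion and of GSTU22, GSTZ1, GPX6 and TT12 after it in herrerae were called in both settings.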

How the data were processed

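Per the labels' protocols, libraries were TruSeq stranded mRNA. The submitters' processing notes name kallisto 0.46.1. As deposited by the authors, each score is a whole number, a rounded TPM, and rows are Arabidopsis loci. Which reference was used, and how Jaltomata transcripts were assigned to loci and summed, is not given in the sources used here. TPM keeps no read depth, so no counting error or limit for a value of 0 can be given. Listed totals were 542947 to 779099 TPM, with 11331 to 12449 loci at 1 TPM or more.

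From these values, TPM was divided by median-ratio factors over the 9613 loci above 0 in all 20 libraries used, and a locus was kept if 2 or more libraries reached 1 TPM. limma 3.58.1 (R 4.3.3) was fitted to log2(rescaled TPM + 1) with 1 mean for each of 8 groups, a trended prior variance and Benjamini-Hochberg adjustment over all 13075 loci for each of 11 comparisons. Each locus has 1 variance over all groups, so values within a species carry the spread of the other. A group listed at 0 adds no spread, as procumbens for GSTF7 and herrerae before and during secretion for GSTF2. SE and p of these loci can then be too small. Fold changes on this scale understate those of low loci. Group membership follows the labels, which name no separate plants, and p-values therefore measure the spread between these samples alone. The 3 procumbens libraries left out came back in 2 alternatives. The others were deposited TPM without rescaling, 0.1 as pseudocount, dropping the filter, raising it to a mean TPM of 5, blocking on the replicate letter, fitting the compared groups alone, and omitting each library once (a group left with 1 library was assumed to vary like the others). Members and lists were chosen with earlier results of these data known, and symbols are those of the Arabidopsis loci in the lists. Members were named throughout, and of each other list the called locus with the largest rise and fall among those whose groups did not overlap. ABCC2, GPX6 in procumbens and the tau loci given with a species difference or as an example of level were picked after their values were seen, as was DHAR2. The steps were tested on simulated data. Python 3.11.15 with numpy 2.4.6, pandas 2.3.3 and matplotlib 3.10.9 made tables and figures.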

Additional observations from a re-analysis of the deposited data

Results flagged for a closer look

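In procumbens pre-secretory nectary, library A stood far from the other 3 for 2 of the 4 phi loci. GSTF3 was at 116 TPM there against 18 to 30 in B, C and D, and GSTF7 at 11 TPM against 0. This library was not used in the tests, and it correlated better with herrerae leaf (r = 0.886) than with its own group (r = 0.463). Chance places about 1 in 20 groups of like libraries past the limit used here. Library A was already known to differ from its group, so for GSTF3 that rate does not describe it. For GSTF7 the other 3 libraries were at 0, so any value above 0 would have stood apart and the limit says nothing of chance. GSTF11 changed after secretion in herrerae but was not called in procumbens, and the difference between these changes was 1.47 (adjusted p = 0.00353). For GSTF3 the difference was -2.03 (adjusted p = 0.0275), with the larger rise in procumbens.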

How the results depend on the processing

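Of 440 alternative values for the phi loci, 373 kept their direction and side of the threshold, 49 lost a call, 3 gained one and 15 changed sign, none of the 15 for a called locus. The fall of GSTF7 after secretion, both herrerae changes of GSTF11 and the GSTF2 differences in leaf and post-secretory nectary kept their calls in all settings run. Those of GSTF2 rest on herrerae libraries at 0 or 1 TPM. The cause of the lost calls was not tested. Members called fell with all 23 libraries rescaled, to 1 of 2 in herrerae secretory against pre-secretory, to 0 in the same contrast of procumbens, to 0 in procumbens post-secretory against secretory, to 0 between species before and during secretion, to 1 after it, and to 0 of 1 for the species difference after secretion. Calls over all loci fell as well, from 4652 to 376 in procumbens secretory against pre-secretory (13 with the compared groups alone). In procumbens post-secretory against secretory they fell from 5003 to 0 of 13080, where limma gave 1611 loci an unadjusted p under 0.05. They fell from 4381 to 1161 in herrerae secretory against pre-secretory and from 2727 to 243 for the species difference after secretion. Between species they fell from 6334 to 2531 before, from 6347 to 3448 during and from 6098 to 4060 after secretion. Members called with all 23 as deposited were 1, 0 and 0 in those 3 stage contrasts and 0 in procumbens nectary against leaf. They were 1 between species during and after secretion and 0 for the species difference. Over all loci, 227, 21 and 0 were called in those 3, and 370 in procumbens nectary against leaf. Between species it was 4269 during and 3035 after secretion, and 97 for the species difference. In deposited TPM of 20 libraries, members called were 1 in herrerae secretory against pre-secretory, 2 between species before secretion and 1 after it. Loci called there were 3309, 7682 and 6019 of 13075. Procumbens secretory against pre-secretory gave 1 with a pseudocount of 0.1 and 0 with the compared groups alone, where 4508 of 13075 and 13 of 12321 loci were called. Leaving out 1 library gave 1 to 2 there, 1 to 2 between species before secretion and 0 to 2 during it.

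Signs turned only for values that were not called. GSTF3 between species before secretion was -0.70 and -1.30 with all 23 libraries (rescaled, deposited), -0.74 in deposited TPM, and -0.20 to 0.28 without 1 library. During secretion it was -0.33 in deposited TPM of 20 or 23 libraries, and in leaf -0.51 to 1.13 without 1 library. GSTF3 in procumbens secretory against pre-secretory was -0.39 to 0.12 without 1 library. GSTF11 between species in leaf was 0.44 with all 23 libraries and -0.57 to 0.075 without 1.

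Replicate letters did not pair the samples between herrerae nectary stages (r of same-letter deviations -0.13 to 0.13). Procumbens and leaf were not checked in this way. With the replicate block, members called in procumbens secretory against pre-secretory went from 2 to 1 (GSTF2, adjusted p = 0.0786), and GSTF3 between species before secretion was -0.048. Calls over all 13075 loci fell with the block from 4652 to 2250 in that procumbens contrast. For the species difference at secretion they fell from 1739 to 774.

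The deposited scale moved the split of all calls. The share called higher went from 46.0 to 15.2% and from 56.4 to 90.8% in the herrerae stage contrasts, from 48.7 to 27.1% and from 55.9 to 83.7% in those of procumbens, and from 46.2 to 70.5% in procumbens nectary against leaf. Between species it went from 50.9 to 17.6%, 49.9 to 14.6%, 50.9 to 27.6% and 53.0 to 41.4% (pre-secretory, secretory, post-secretory, leaf), and for the species differences from 49.3 to 37.7% and 47.9 to 70.4%. The median of all loci shifted with it, between species by -0.84 during secretion as deposited against 0 rescaled. Groups of 2 or 3 libraries, unknown depth and whole-number TPM limit what values of a few TPM can show. Examples are those of GSTF2 in all herrerae groups and in procumbens before and during secretion.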
